A study of Mus musculus with 4 samples.

Results

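Potassium channel genes were the 89 protein-coding genes, of 28193 genes in the deposited table, whose symbol is Kcn followed by further letters and a digit. The choice used the symbol only and no measured value. By symbol, 39 of them encode voltage-gated pore-forming subunits, 12 their auxiliary subunits, 14 inward rectifiers (Kcnj), 12 two-pore channels (Kcnk) and 12 the calcium- and sodium-activated channels with their auxiliary subunits. All 89 genes had reads in at least 1 library, and 86 passed the filter of more than 5 counts in every library and were tested.

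Potassium channels let potassium leave the cell and so return the membrane towards rest. Voltage-gated channels open on depolarization and shape the action potential and its frequency, inward rectifiers and two-pore channels set the resting potential, and calcium-activated channels carry the afterhyperpolarization that follows a spike. In CA1 pyramidal neurons, Kv4 (Kcnd) channels carry the dendritic A-type current, Kv2 (Kcnb) channels the somatic delayed rectifier, Kv1 (Kcna) channels much of the axonal current, and Kv7 (Kcnq) channels the M-current, which restrains repetitive firing.

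The data came from fosTRAP-seq, in which ribosomes that carry an HA-tagged Rpl22 protein are pulled down from neurons that expressed Fos in a tagging window, and the RNA bound to them is sequenced. Male C57BL/6J mice of 3 to 5 months received, in area CA1, a vector with a tamoxifen-dependent Cre driven by the c-Fos promoter (AAV8) and a Cre-dependent vector with HA-mRpl22 (AAV9, EF1a promoter). All mice, those of the control group included, were sleep deprived for 5 h on day 0 with 4-OHT given at Zeitgeber time 2, so neurons of both groups were tagged during sleep loss. On day 7 the SD group was sleep deprived for 5 h again by gentle handling, the NSD group was left undisturbed, and tissue was taken at Zeitgeber time 5. Each group had n = 2 libraries (NSD 1, NSD 2, SD 1 and SD 2), each a pool of the CA1 of 5 mice. In place of CA1 and the vectors, the labels name dorsal hippocampus and the genotype cFos-Cre:Ribotag.

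The libraries held between 153511705 and 195910235 estimated counts. Values below are CPM, counts put on 1 library size with TMM factors, errors are the standard deviation (s.d.) over the 2 libraries of a group or the standard error (SE) of a log2 fold change, and a log2 fold change is SD over NSD. A gene was called when the adjusted p of the edgeR quasi-likelihood test was under 0.05 and the fold change over 1.2. Libraries with the same number share a batch in the labels, so a second fit compared the groups within batches, here named the fit with the block. That fit has fewer degrees of freedom left to estimate the spread of a gene. Its common dispersion was 0.01728, against 0.02955 without the block. All 8 markers of CA1 and pyramidal neurons were present in every library, with Camk2a at 4090 to 4379 CPM. The listed markers of other cell types were also present in every library, with Slc1a2 of astrocytes at 2584 to 3147 CPM and Mbp of oligodendrocytes at 880 to 1073 CPM. The part of such cells in the channel levels was not tested. Of the 8 CA1 and pyramidal markers 4, with Fibcd1, Neurod6 and Wfs1 among these, were called lower in SD with the block, while 3 of the 8 were above 0 on the log2 scale and none was called higher. The 8 endothelial markers summed to 46.2 and 63.9 CPM in NSD and to 37.3 and 23.9 CPM in SD, all 8 were below 0 on the log2 scale and 6 were called lower with the block. The summed CPM was 6350 and 6674 against 6111 and 6580 for the CA1 and pyramidal list, 890 and 859 against 879 and 797 for 8 interneuron genes, 3451 and 2998 against 3565 and 3575 for 6 astrocyte genes, 1862 and 1539 against 1799 and 1713 for 6 oligodendrocyte genes, and 78.5 and 63.4 against 78.8 and 59.2 for 6 microglial genes. Fewer cells of a type and less RNA per cell cannot be told apart in such pools, and the part of these shifts in the results below was not tested.

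The level of the family is best read per kilobase of exon, since genes differ in length. On that scale the gene with the highest mean level was Kcnab2, the beta subunit of Kv1 channels, with 91.4 and 95.6 CPM per kb in NSD and 93.5 and 100 CPM per kb in SD. It shares 402 exon bases with Chd5 on the other strand, a gene with 69.1% of its CPM, so part of this level is uncertain. Kcna2, a Kv1 pore, had 42.4 and 43.1 CPM per kb in NSD and 56.5 and 55.7 in SD. Of the genes below it, Kcnj3, Kcnd2, Kcnq3 and Kcna1 all lay between 31.7 and 41.0 CPM per kb and could not be ordered beyond their spread.

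Among the other groups, Kcnj3, a subunit of G protein-gated channels, led the inward rectifiers with 36.2, 38.0, 34.5 and 36.2 CPM per kb. Kcnma1, the pore of the large-conductance calcium-activated (BK) channel, led the calcium- and sodium-activated genes with 30.8, 31.4, 34.7 and 34.5 CPM per kb. The highest two-pore gene was Kcnk1 with 8.74, 9.81, 8.59 and 8.32 CPM per kb. By contrast 17 members had a mean under 1 CPM, among them Kcnv2, Kcna10, Kcnq1, Kcnk18, Kcnmb1, Kcnmb3 and 4 of the 5 Kcne genes. The 3 untested genes were Kcne1 with 5, 9, 0 and 0 counts, Kcnk15 with 9, 15, 10 and 0, and Kcnj15 with 0, 18, 6 and 7.

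**Figure D1:**
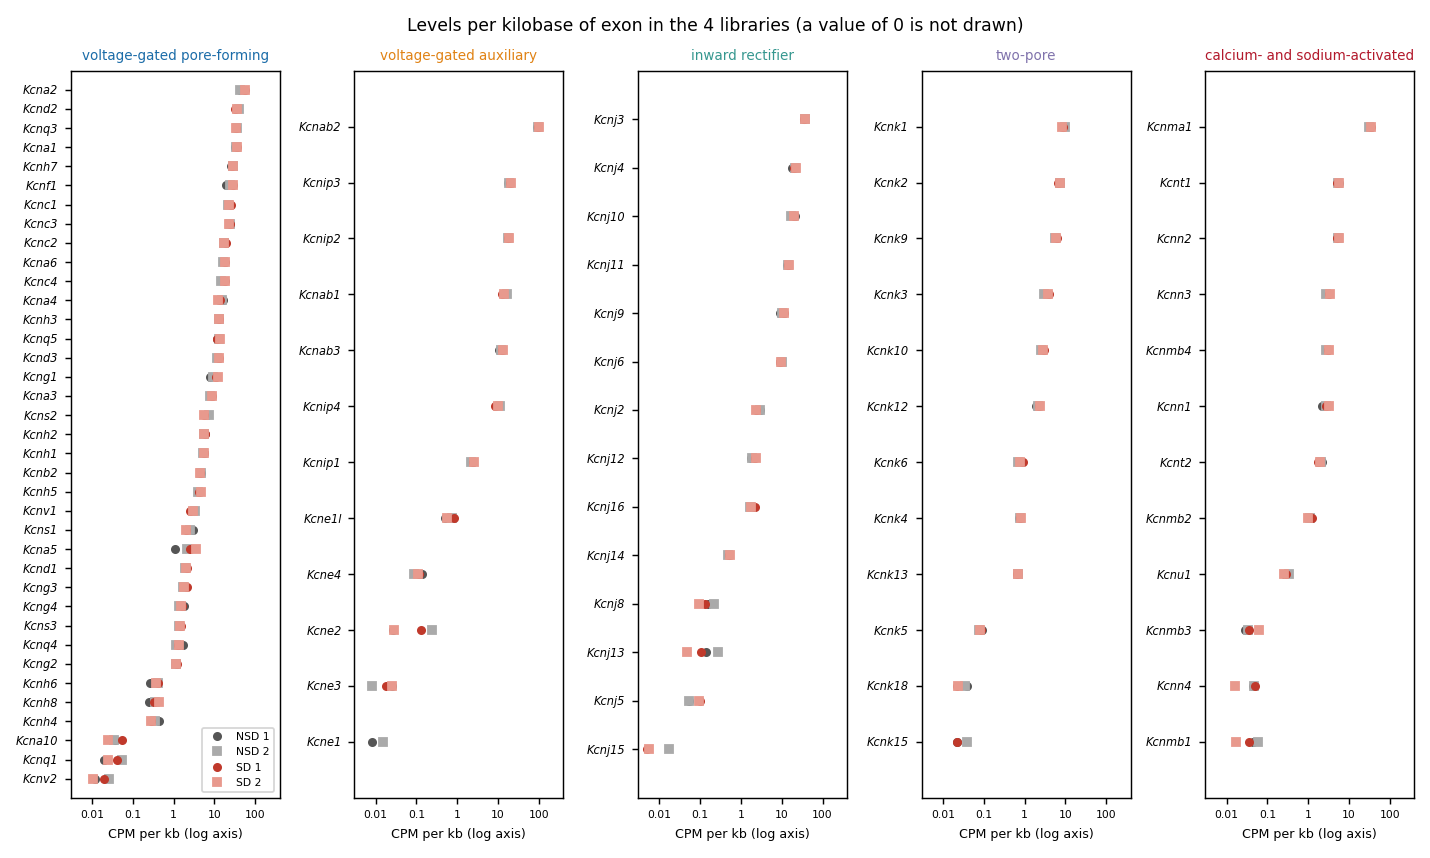
Level per kilobase of exon (CPM per kb, log axis) of 87 of the 89 potassium channel genes, with 1 panel for each group by symbol and 1 point for each of the 4 libraries (circle, library 1, square, library 2, grey, NSD, red, SD). Levels span from under 0.01 to about 100 CPM per kb, and the points of the 4 libraries nearly coincide for most genes and spread apart among the rarest.

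Across the whole family the number of genes called depended on the fit, and calls in both directions came only with the block or by DESeq2, or without SD 1. In the fit without the block 1 member was called higher (Kcng1) and 0 were called lower, where 0.952% of the protein-coding genes tested were called higher and 0.54% lower, and 0.77% and 2.33% of all genes tested. At an unadjusted p under 0.05 there were 13 members higher and 8 lower, against 8.86% and 5.76% of protein-coding genes. With the block 7 members were called higher and 7 lower, against 3.77% and 3.29% of the protein-coding genes and 2.99% and 8.47% of all genes tested. DESeq2 called 5 higher and 3 lower, against 3.91% and 1.79% of protein-coding genes. The libraries of the groups did not overlap for 32 members higher in SD (37.2%) and 17 lower (19.8%), where the shares over protein-coding genes were 26.5% and 20%.

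The 7 genes called higher with the block were Kcng1, Kcna2, Kcnf1, Kcna5, Kcnj12, Kcnn1 and Kcnk3, and the 7 called lower were Kcna4, Kcnab1, Kcns1, Kcns2, Kcnv1, Kcnj2 and Kcnj13. In all 14 the SD libraries lay entirely on one side of the NSD libraries. With a library left out, the log2 fold change moved by over 1.5 times or turned sign in 60 of the 86 tested members. In 24 it turned sign, and none of these 24 was among the 14. Groups that do not overlap can hardly turn sign when a library is left out, so this says nothing further about the 14. Of the 14, 5 moved by over 1.5 times. All 8 DESeq2 calls were among these 14, and DESeq2 did not call Kcna5, Kcnn1, Kcnab1, Kcns1, Kcnv1 or Kcnj2.

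**Figure D2:**
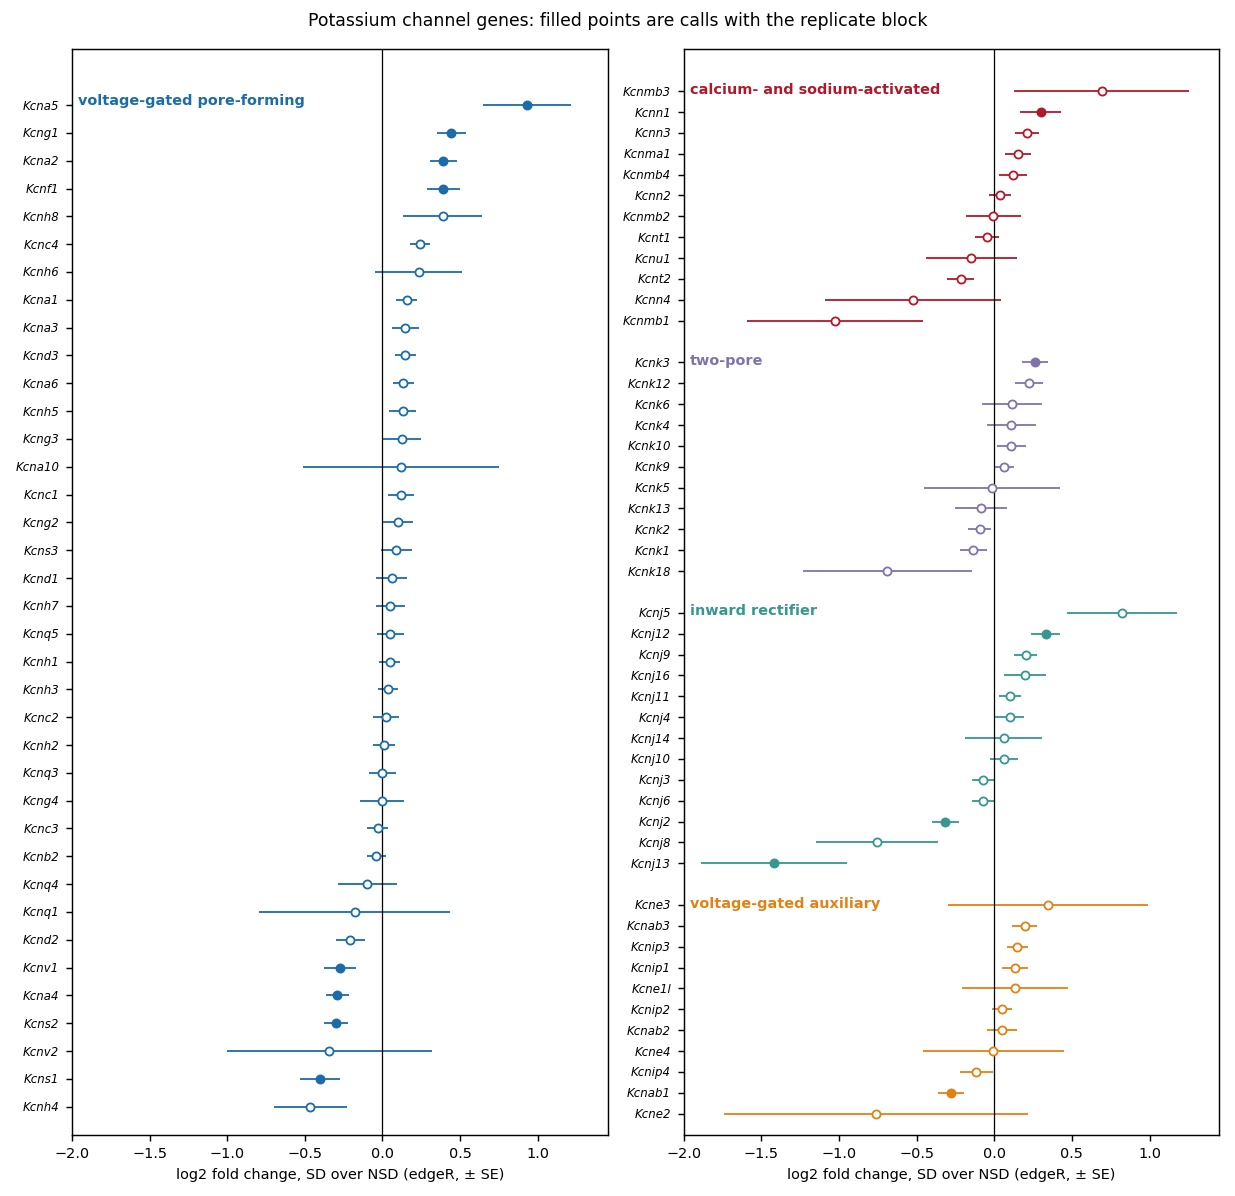
Log2 fold change (SD over NSD, edgeR fit without the block) of 84 of the 86 tested potassium channel genes, ordered within each group by symbol, with bars of 1 SE. Filled points are the 14 genes called with the block, 7 on each side of 0, and the widest bars belong to genes with few counts such as Kcne2, Kcnv2 and Kcnmb3.

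Over the 86 tested members the median log2 fold change was 0.060, with 53 above and 33 below 0, beside a median of 0.018 over protein-coding genes and -0.016 over all genes tested. The family median was 0.12 without NSD 1 and 0.038 when protein-coding genes alone were tested. The groups had medians of 0.059 (voltage-gated pore-forming), 0.052 (auxiliary), 0.062 (inward rectifiers), 0.061 (two-pore) and 0.015 (calcium- and sodium-activated), a range far narrower than that of the genes inside any of them. In a split added after the values were seen, the 72 members with a mean of 1 CPM or more had a median of 0.075 and the 14 tested members under 1 CPM a median of -0.26. Across all 86 the Spearman rho of mean CPM and log2 fold change was 0.18. That correlation runs over genes of the same 4 libraries, which are not independent replicates.

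The reads of the whole family summed to 7887 and 8199 CPM in NSD and to 8533 and 8752 CPM in SD. The summed CPM of all tested protein-coding genes was likewise higher in SD on this scale. As a share of the CPM of those genes the tested members made up 0.832% and 0.867% in NSD and 0.876% and 0.870% in SD. An exact permutation test of 2 libraries against 2 cannot give a two-sided p below 0.333, so this was not tested further. The voltage-gated pore-forming genes held 62.5% and 62.8% of the family's CPM in NSD and 64.4% and 63.8% in SD, and the auxiliary genes 16.9% and 17.0% in NSD and 15.5% and 16.3% in SD.

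The Kv1 genes Kcna2 and Kcna4 were called in opposite directions with the block. Kcna2 (ENSMUSG00000040724, chr3:107008462-107022321, plus strand, GRCm39), a non-inactivating axonal Kv1 subunit, stood at 571.9 and 581.7 CPM in NSD and at 762.5 and 752.3 CPM in SD. Its groups were well apart, with means of 577 ± 6.93 and 757 ± 7.20 CPM (s.d., n = 2 each). The log2 fold change was 0.39 ± 0.09 (SE, 95% interval 0.20 to 0.59), with an edgeR adjusted p of 0.0510 without the block, 0.00285 with it and 7.25e-08 by DESeq2.

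Kcna4 (ENSMUSG00000042604, chr2:107120984-107128847, plus strand), the Kv1 subunit that inactivates rapidly and gives an A-type current, went the other way. It stood at 85.0 and 81.0 CPM in NSD and at 71.3 and 64.4 CPM in SD. The log2 fold change was -0.29 ± 0.07 (SE, 95% interval -0.46 to -0.12), with edgeR adjusted p values of 0.0727 without the block and 0.00353 with it, and 0.0259 by DESeq2. Within each library the ratio of Kcna2 to Kcna4 in CPM per kb was 2.59 and 2.76 in NSD and 4.11 and 4.49 in SD, a ratio chosen after the values were seen and independent of the scaling between libraries.

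Kcna5, a Kv1 subunit best known from heart and vascular muscle, had 3.14 and 5.99 CPM in NSD and 7.28 and 10.1 CPM in SD. The SD libraries were higher, but NSD 2 lay closer to SD 1 than to NSD 1, and in both groups the library of batch 2 was above that of batch 1. Its log2 fold change of 0.93 ± 0.28 (SE) had an edgeR adjusted p of 0.114 without the block, 0.000376 with it and 0.270 by DESeq2. It was 0.57 without NSD 1, where it was not called, and 1.47, 1.15 and 0.69 without NSD 2, SD 1 and SD 2, where it was. Kcna1, the usual axonal partner of Kcna2, had 152.5, 157.9, 170.5 and 175.3 CPM, and its log2 fold change of 0.16 had an adjusted p of 0.275 by edgeR. The Kcna genes were above 0 in 6 of 7 cases, with Kcna4 the exception.

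The beta subunits bind Kv1 pores inside the cell, and Kvbeta1, the product of Kcnab1, confers fast inactivation on them. Kcnab1 (chr3:64856617-65285644, plus strand) had 193.1 and 208.3 CPM in NSD and 155.9 and 174.7 CPM in SD. Its libraries did not overlap, and the log2 fold change of -0.28 ± 0.08 (SE) had an edgeR adjusted p of 0.112 without the block and 0.00894 with it. DESeq2 gave it an adjusted p of 0.0360 with a fold under the threshold of 1.2. The other beta subunits did not follow, with Kcnab2 at 901.2, 942.2, 921.7 and 987.8 CPM (log2 fold change 0.05). Kcnab3 had 35.0, 38.5, 40.2 and 43.9 CPM (log2 fold change 0.20, edgeR adjusted p 0.229, and 0.0479 with the block, with a fold under 1.2). The ratio of Kcnab1 to Kcnab2 in CPM per kb, again chosen after the values were seen, was 0.169 and 0.174 in NSD and 0.133 and 0.139 in SD.

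Kcnb2 encodes a pore-forming Kv2 subunit, and a further set of genes (Kcnf1, Kcng, Kcns and Kcnv) encodes electrically silent subunits, which form no channel alone but join Kv2 subunits and alter their gating. Kcng1 (ENSMUSG00000074575, chr2:168102037-168123656, minus strand) was the only member called without the block. It rose from 39.4 and 45.5 CPM in NSD to 54.2 and 61.2 CPM in SD. The group means were 42.5 ± 4.32 and 57.7 ± 4.95 CPM (s.d., n = 2 each), a 1.36-fold difference, with a log2 fold change of 0.44 ± 0.09 (SE, 95% interval 0.23 to 0.65) and an edgeR adjusted p of 0.0464. The adjusted p was 0.000302 with the block and 0.000429 by DESeq2, and it was 0.0826 without NSD 1.

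Kcnf1 (ENSMUSG00000051726, chr12:17222101-17226889, minus strand) had 92.9 and 117.5 CPM in NSD and 135.5 and 140.4 CPM in SD. NSD 1 was the lowest of the 4, and the SD libraries lay close together. The log2 fold change was 0.39 ± 0.11 (SE), with edgeR adjusted p values of 0.0867 without the block and 0.00206 with it, and 0.00343 by DESeq2. It was called in the fits without NSD 2, SD 1 or SD 2 and not without NSD 1 (adjusted p 0.160 by edgeR).

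Kcns1, Kcns2 and Kcnv1 were lower in SD, whereas Kcns3 was slightly higher (log2 fold change 0.09) and Kcnv2 had overlapping groups. Kcns2 (ENSMUSG00000050963, chr15:34837501-34843553, plus strand) had 42.4 and 47.6 CPM in NSD and 37.3 and 36.0 CPM in SD, a log2 fold change of -0.30 ± 0.08 (SE) with an edgeR adjusted p of 0.0794 without the block and 0.0105 with it, and 0.0363 by DESeq2. Kcns1 had 9.10 and 7.72 CPM in NSD and 6.45 and 6.27 CPM in SD, with a log2 fold change of -0.40 ± 0.13 (SE) and edgeR adjusted p values of 0.129 and 0.0304 with the block and 0.0915 by DESeq2, and it stood at -0.25 without NSD 1. Kcnv1 had 23.4 and 25.7 CPM in NSD and 18.5 and 22.1 CPM in SD, with a log2 fold change of -0.27 ± 0.10 (SE) and edgeR adjusted p values of 0.196 and 0.0223 with the block and 0.212 by DESeq2, and it stood at -0.15 without SD 1. In each of these 3 genes the SD libraries were the lowest 2 of the 4.

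The silent subunits as a set therefore had no common direction, with 5 above and 5 below 0, 2 called higher and 3 called lower with the block, and a median log2 fold change of 0.043. Kcnb2 was level at 96.3 to 99.5 CPM in all 4 libraries. Relative to Kcns2 in the same library, the level of Kcnf1 per kb was 2.998 and 3.37 in NSD and 4.97 and 5.33 in SD, and that of Kcng1 was 1.204 and 1.24 in NSD and 1.88 and 2.20 in SD. Both ratios were chosen after the values were seen.

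**Figure D3:**
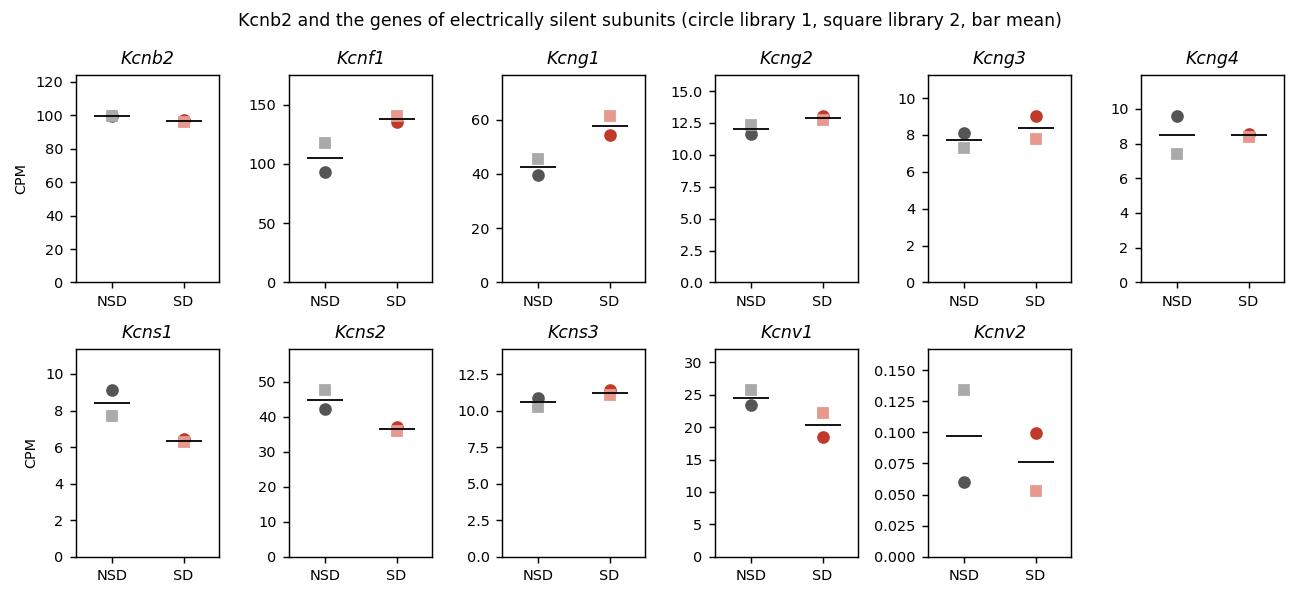
CPM of Kcnb2 and of the 10 genes of electrically silent subunits in the 4 libraries, with the mean of each group as a bar and every vertical axis starting at 0. Kcng1 and Kcnf1 lie higher in both SD libraries, Kcns1, Kcns2 and Kcnv1 lie lower, and Kcnb2, Kcng4 and Kcns3 hardly differ between the means.

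The start sites of these genes are shown so that silent subunit genes called in opposite directions can be compared there. The 200 bases before the start site of the canonical transcript (GENCODE M39, GRCm39, read from the genome) are given 5′ to 3′ on the gene's own strand for Kcng1 (chr2:168123065-168123264, minus), Kcnf1 (chr12:17226890-17227089, minus) and Kcns2 (chr15:34837301-34837500, plus). For Kcnk3, described below, 30 bases (chr5:30745351-30745380, plus) are given with a CArG box, the element bound by serum response factor, in capitals. The gene spans printed in this report come from the deposited table and can differ from these start sites. The start site used for Kcng1 (168123064) lies inside its printed span, and that used for Kcnk3 (30745393) lies before its printed span.
Kcng1: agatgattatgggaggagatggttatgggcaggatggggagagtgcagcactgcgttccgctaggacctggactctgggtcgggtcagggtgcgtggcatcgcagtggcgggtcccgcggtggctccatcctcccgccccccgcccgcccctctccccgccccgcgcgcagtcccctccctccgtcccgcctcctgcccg
Kcnf1: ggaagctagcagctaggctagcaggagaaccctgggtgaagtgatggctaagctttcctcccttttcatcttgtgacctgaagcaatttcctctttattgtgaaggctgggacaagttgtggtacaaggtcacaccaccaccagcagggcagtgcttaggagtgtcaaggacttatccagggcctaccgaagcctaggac
Kcns2: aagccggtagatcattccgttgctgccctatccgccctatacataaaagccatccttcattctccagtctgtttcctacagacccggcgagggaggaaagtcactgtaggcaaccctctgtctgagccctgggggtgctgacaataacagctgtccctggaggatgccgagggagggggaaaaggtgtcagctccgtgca
Kcnk3: gctccccagtCCTTATTTGGctgggcggga

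Motifs of factors known from activity-regulated genes were searched on both strands of the 250 bases before the start site of the 86 tested members and of 15533 tested protein-coding genes. The full cAMP response element TGACGTCA was in 1.90% of all these promoters and in 0 of the 86. The half-site TGACG, which the full element contains, was in 21.6% of all promoters, in 13 members (15.1%), in 0 of the 7 genes called higher with the block and in 1 of the 7 called lower (Kcnj13). The AP-1 motif TGANTCA was in 4.67% of all promoters and in 1 member (Kcng4), and the EGR motif GCGNGGGCG in 5.87% of all and in 5 members (5.81%), none of them among the 14. The CArG box was in 1.23% of all promoters and in 1 member, Kcnk3, 32 bases before the start site. A match is a description of the letters only. The median GC content of these windows was 62% for the 7 genes called higher, 52.8% for the 7 called lower, 59.8% for the 86 members and 56% for all promoters. The genes called higher ran from 51.2% (Kcnf1) to 74% (Kcnj12) and those called lower from 44.4% (Kcnj13) to 66.4% (Kcnj2), so these small sets overlapped.

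Among the other voltage-gated pores, Kcnc4, a fast inactivating Kv3 subunit, had 78.0 and 74.8 CPM in NSD and 89.3 and 91.2 CPM in SD. Its log2 fold change of 0.24 ± 0.06 (SE) had an edgeR adjusted p of 0.0836 without the block and 0.0105 with it, but its fold stayed under 1.2 and it was not called. The Kv4 genes of the A-type current pointed apart. Kcnd2 had 209.1 and 237.2 CPM in NSD and 183.3 and 203.4 CPM in SD. Its log2 fold change was -0.21 (-0.11 without NSD 2 and -0.13 without SD 1), with an edgeR adjusted p of 0.267 without the block. With the block it was 0.0461, with a fold under 1.2. Kcnd3 had 118.2, 114.4, 130.7 and 126.8 CPM (log2 fold change 0.15, edgeR adjusted p 0.283). Of the KChIP genes, whose products bind Kv4 channels, 3 of 4 were above 0 and none was called, with Kcnip4 at 32.5, 39.6, 31.2 and 35.4 CPM.

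The M-channel genes Kcnq3 and Kcnq5 differed little between the groups. Kcnq3 had 489.1, 529.4, 511.1 and 506.8 CPM, with an interval of -0.20 to 0.20 around a log2 fold change of about 0, and Kcnq5 had 88.1, 98.4, 90.1 and 102.8 CPM with an interval of -0.15 to 0.25. Kcnh7, an erg channel gene, had 394.9, 433.6, 410.2 and 448.6 CPM, so its libraries followed the batch number more than the group. Kcnc1, a Kv3 subunit of fast-firing cells, had 238.6, 225.4, 266.3 and 238.4 CPM (log2 fold change 0.12, edgeR adjusted p 0.511, and 0.04 to 0.21 without SD 1 or SD 2). The lowest log2 fold change among voltage-gated pores with separate groups was that of Kcnh4, at 2.35, 1.88, 1.53 and 1.54 CPM (-0.46 ± 0.23, SE, edgeR adjusted p 0.337, and -0.26 without NSD 1).

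**Figure D4:**
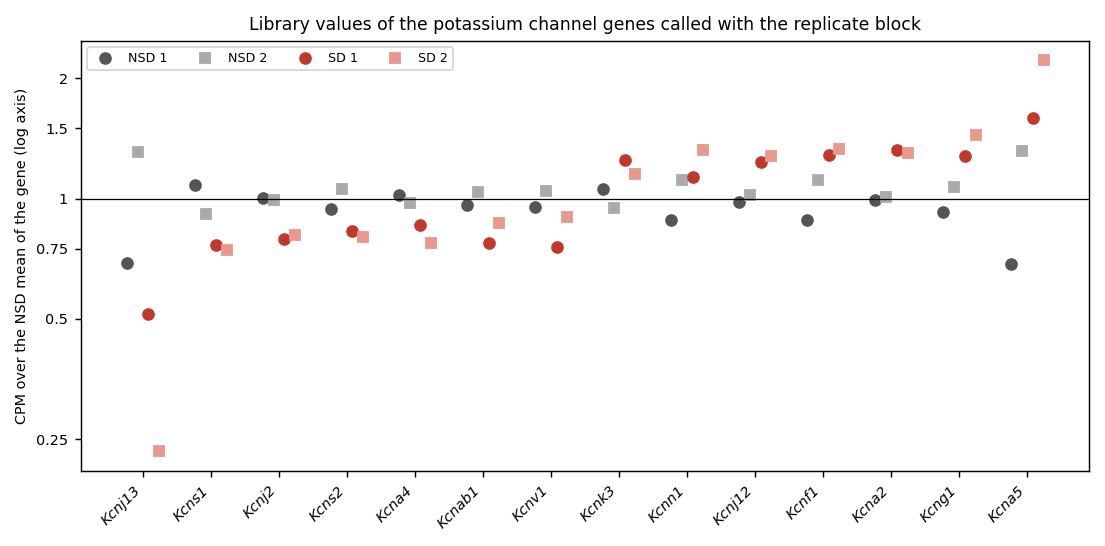
CPM of each library divided by the NSD mean of the gene (log axis) for the 14 potassium channel genes called with the block, ordered by log2 fold change (circle, library 1, square, library 2, grey, NSD, red, SD). In every gene both SD points lie on one side of both NSD points, with Kcna2, Kcnj2 and Kcnj12 showing the tightest groups and Kcnj13 and Kcna5 the widest.

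Inward rectifiers of the Kir2 type hold the membrane near rest, and 2 of their genes were called in opposite directions with the block. Kcnj12 (chr11:60913390-60961957, plus strand) had 10.9 and 11.3 CPM in NSD and 13.8 and 14.2 CPM in SD. Its log2 fold change was 0.33 ± 0.09 (SE), with edgeR adjusted p values of 0.0936 and 0.0214 with the block and 0.0226 by DESeq2. Kcnj2 (chr11:110956990-110967647, plus strand) had 16.02 and 15.8 CPM in NSD and 12.6 and 13.0 CPM in SD, with a log2 fold change of -0.32 ± 0.09 (SE) and edgeR adjusted p values of 0.0918 and 0.0216 with the block. DESeq2 gave Kcnj2 an adjusted p of 0.0595 and did not call it. Per kilobase of exon, Kcnj2 stood at 2.93, 2.89, 2.31 and 2.37 and Kcnj12 at 1.79, 1.86, 2.25 and 2.33 CPM per kb in NSD 1, NSD 2, SD 1 and SD 2, so that the levels of these genes were further apart in NSD than in SD.

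The genes of G protein-gated (GIRK) channels, which mediate slow inhibition by neurotransmitters, were not called. Kcnj3 had 204.9, 215.5, 195.4 and 205.2 CPM, Kcnj6 had 107.4, 115.5, 103.6 and 108.6, and their log2 fold changes were both -0.07 (-0.03 and -0.02 without NSD 2). Kcnj9 had 89.7, 100.8, 109.97 and 109.2 CPM and was at 0.20 on the log2 scale (edgeR adjusted p 0.188, and 0.0381 with the block, with a fold under 1.2), but it shares 1103 exon bases with Igsf8, a gene with 128% of its CPM. Kcnj5, the GIRK subunit known from heart, had 0.428 and 0.414 CPM in NSD and 0.769 and 0.719 CPM in SD, from 65 to 139 counts, with a log2 fold change of 0.82 ± 0.35 (SE) and an edgeR adjusted p of 0.256. Kcnj11, the pore of the neuronal ATP-sensitive channel, had 49.3, 53.2, 53.3 and 56.7 CPM (log2 fold change 0.10), and Kcnj10, the main inward rectifier of astrocytes, had 112.7, 94.1, 107.6 and 108.1 CPM (log2 fold change 0.06, and 0.23 without NSD 1 and -0.06 without NSD 2).

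Kcnj13 encodes a rectifier known from epithelia such as the choroid plexus. It had 0.875 and 1.66 CPM in NSD and 0.653 and 0.296 CPM in SD, with a log2 fold change of -1.42 ± 0.47 (SE) and edgeR adjusted p values of 0.142 and 0.0452 with the block and 0.0483 by DESeq2. The log2 fold change was -0.88 without NSD 2, -0.94 without SD 2 and -2.09 without SD 1, and the last of these fits called it. A list of 8 choroid plexus markers, written after these values were seen, summed to 142.8, 250.4, 146.1 and 104.7 CPM in NSD 1, NSD 2, SD 1 and SD 2, highest and lowest in the same libraries as Kcnj13. Of its 7 tested genes 6 were below 0 and 2 were called lower with the block, and Ttr, its defining transthyretin gene, had 14.2, 69.8, 25.6 and 4.21 CPM. The part of these cells in the Kcnj13 value was not tested. Kcnj13 also lies within Gigyf2 and shares 669 exon bases with it, and Gigyf2 had 69.4 CPM on average.

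The two-pore channels carry the leak current. Kcnk3 (chr5:30745514-30782615, plus strand), an acid-sensitive leak channel, had 31.3 and 28.0 CPM in NSD and 37.0 and 34.2 CPM in SD. Its log2 fold change was 0.26 ± 0.08 (SE), with edgeR adjusted p values of 0.125 and 0.0144 with the block and 0.0499 by DESeq2, and it shares 229 exon bases with the lncRNA Gm9899 on the other strand, which had 40.0% of its CPM. Its close relative Kcnk9 had 80.7, 77.6, 83.0 and 82.2 CPM, with a log2 fold change of 0.06 (95% interval -0.08 to 0.21). Kcnk2, a mechanosensitive channel, and Kcnk1 were slightly lower in SD, with log2 fold changes of -0.09 and -0.13 and edgeR adjusted p values of 0.572 and 0.469, while Kcnk2 stood at -0.04 and -0.14 without SD 1 and SD 2 and Kcnk1 at -0.05 without NSD 2. Kcnk18, known from sensory neurons, had only 14 to 22 counts per library and a log2 fold change of -0.69 ± 0.54 (SE).

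Small-conductance calcium-activated (SK) channels carry the medium afterhyperpolarization. Kcnn1 had 12.0 and 15.1 CPM in NSD and 15.4 and 17.9 CPM in SD, so the groups did not overlap but NSD 2 and SD 1 were nearly equal. Its log2 fold change of 0.30 ± 0.13 (SE) had edgeR adjusted p values of 0.262 and 0.0264 with the block and 0.162 by DESeq2. It was 0.17 without NSD 1, 0.48 without NSD 2 and 0.20 without SD 2, and the gene shares 639 exon bases with A230052G05Rik, which had 12.7% of its CPM. Kcnn3 had 31.5, 28.7, 34.6 and 35.0 CPM (log2 fold change 0.21, edgeR adjusted p 0.181), and Kcnn2 had 57.1, 61.5, 58.9 and 62.9 CPM (log2 fold change 0.04, 95% interval -0.13 to 0.20).

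Kcnma1, the BK pore, had 523.4 and 533.0 CPM in NSD and 589.2 and 586.1 CPM in SD, and its log2 fold change of 0.15 ± 0.08 (SE) had an edgeR adjusted p of 0.375. Its neuronal beta subunit Kcnmb4 had 17.9, 16.4, 17.9 and 19.3 CPM. The vascular beta subunit Kcnmb1 had 14 to 42 counts per library and a log2 fold change of -1.02 ± 0.57 (SE), which was -1.64 without SD 1 and -0.57 without SD 2. Kcnj8, a pore of the vascular ATP-sensitive channel, had 0.603, 0.847, 0.503 and 0.354 CPM. Kcnmb1 and Kcnj8 were lowest in SD 2, which also had the lowest sum of the 6 mural cell markers (86.9 and 79.0 CPM in NSD, 79.8 and 68.0 CPM in SD, with 5 of 6 below 0) and of the endothelial markers. Kcna5, also known from vascular muscle, and the mural marker Tagln were instead highest in SD 2 (10.1 and 0.788 CPM). The part of these cells was not tested. Kcnmb3 had 0.0844, 0.102, 0.111 and 0.190 CPM. Kcnt1, the main sodium-activated channel, had 62.7, 59.6, 55.7 and 62.8 CPM (log2 fold change -0.05).

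The proteins that assemble with these channels were described from 20 further genes, of which 19 were tested, 10 above and 9 below 0 with a median log2 fold change of 0.042. None was called without the block, where 3 had an unadjusted p under 0.05 by edgeR (1 higher, 2 lower), and with the block and by DESeq2 1 was called higher and 1 lower. The gene called higher was Vapb, whose product tethers Kv2 channels to the endoplasmic reticulum, with 141.6 and 151.6 CPM in NSD and 180.0 and 174.5 CPM in SD (log2 fold change 0.27 ± 0.07, SE, edgeR adjusted p 0.0827 and 0.0113 with the block). The one called lower was Cntnap2, which clusters Kv1 channels along the axon, with 214.6 and 240.4 CPM in NSD and 176.9 and 191.1 CPM in SD (log2 fold change -0.31 ± 0.09, SE, edgeR adjusted p 0.0931 and 0.00618 with the block). Vapa, the paralog of Vapb, had 99.5, 118.3, 108.7 and 115.8 CPM. The Kv4 partners Dpp6 and Dpp10 had log2 fold changes of -0.02 and 0.08. Abcc8, the sulfonylurea receptor that pairs with Kcnj11, had 21.0, 23.7, 18.5 and 19.3 CPM (log2 fold change -0.24, edgeR adjusted p 0.181, and 0.04455 with the block, with a fold under 1.2).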

How the data were processed

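The authors trimmed the reads of 4 ribosome-bound RNA libraries, aligned them with STAR to GRCm39 (mm39) and deposited estimated counts per gene, not normalized, made in Partek Flow by expectation-maximization on the Ensembl 110 gene models. Whether counting used strand is not given in the sources used here. The estimated counts were rounded and tested with edgeR 4.0.16 (R 4.3.3): TMM scaling, a minimum of more than 5 counts per library (22338 genes), a quasi-likelihood fit on condition, and Benjamini-Hochberg adjustment over all genes tested. DESeq2 1.42.0 and a fit with the batch number as a block were alternatives. The pairing comes from the labels. Deviations of same-numbered libraries correlated at 0.178 over all genes, -0.552 over the potassium channel genes and 0.264 over those with a mean of 1 CPM or more. The precision is limited by the spread between 2 pools of mice per group and, for genes with few counts, also by counting error. Exon lengths, overlaps and promoters came from GENCODE M39 of the same build. The fits were tested on simulated data.

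Named genes were those called in any of these 3 fits, the highest level and the largest rise and fall with separate groups in each subfamily, a list of channels known from pyramidal neurons, and members on a gene list that the study chose on these libraries (Kcna2, Kcna4, Kcnc4, Kcnf1, Kcng1 and Kcnj12). Results for some of these are not reported here. A few further members were named after their values were seen. Members, lists and tests were chosen with earlier results of these data known. The motifs, the choroid plexus list and the ratios were chosen after seeing the data. Of the 89 genes, 26 share exon bases with another gene.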

Additional observations from a re-analysis of the deposited data

How the results depend on the processing

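The number of members called higher (1) became 5 by DESeq2, 2 with DESeq2's size factors in edgeR, 7 with the replicate block, and 0 without a count filter, with filterByExpr, with protein-coding genes only or above a fold change of 1.5. Leaving out a library gave 0 (without NSD 1) to 3 (without NSD 2, SD 1 or SD 2). The number called lower (0) became 3 by DESeq2 and 7 with the replicate block, and 0 to 2 with a library left out (2 without SD 1: Kcna4 and Kcnj13). Such a fit assumes that the lone library varies like the other group. Kcng1 lost its call in 4 of these fits, with log2 fold changes of 0.37 to 0.47. The median log2 fold change of all members was 0.048 to 0.12 with a library left out. That of the pore-forming genes was 0.081 by DESeq2 and with its size factors, 0.087 without a filter, 0.038 with protein-coding genes only and 0.046 to 0.14 with a library left out. The ranges with a library left out were 0.033 to 0.087 (auxiliary, with 0.080 without a filter), 0.026 to 0.077 (inward rectifiers), -0.039 to 0.12 (two-pore, below 0 without NSD 2 or SD 1) and 0.018 to 0.074 (calcium- and sodium-activated). The last median (0.015) was -0.0052 with protein-coding genes only, 0.038 by DESeq2 and 0.044 without a filter. Some genes near 0 changed sign. With a library left out, the log2 fold change ran from -0.028 to 0.057 for Kcnq3, from -0.0020 (without SD 2) to 0.12 for Kcnh7, from -0.036 (without SD 2) to 0.14 for Kcnq5, from -0.22 to 0.034 (without NSD 2) for Kcnip4 and from -0.12 to 0.039 (above 0 without NSD 1 or SD 1) for Kcnt1. Kcnq3 was also above 0 by DESeq2 and with its size factors (0.022), without a filter (0.027), with filterByExpr (0.0054) and with the replicate block (0.00021). The cause of these changes was not tested. The replicate block changed no call of a potassium channel or partner gene other than those given in the report.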
